A study of Homo sapiens with 9 samples.

Results

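The antioxidant and glutathione genes described here are 38 genes of the NRF2 programme, out of 26364 gene symbols counted in each library. They were taken from a written list of genes for glutathione, thioredoxin, NADPH and other NRF2-responsive functions. No measured value enters the rule, but the list was drawn up with earlier results of these data known. All 38 were in the files and 37 had enough counts to be tested, among 13704 genes tested in all. The exception was GPX2, a gastrointestinal glutathione peroxidase, which had a count of 0 in all 9 libraries. At this depth a count of 0 allows up to 3 counts, or 0.163 to 0.202 CPM per library.

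MDA-MB-231 is a human breast cancer line of the triple-negative kind with mesenchymal features. The 9 libraries came from cells that stably carried an shRNA, with 3 libraries of a control line with a non-targeting shRNA (shNT) and 3 of each of 2 GLO1-silenced lines, shGLO1#1 and shGLO1#2. GLO1 (glyoxalase 1) clears methylglyoxal (MG), a reactive dicarbonyl made as a by-product of glycolysis, with glutathione as its cofactor. The series calls the lines clones and holds 1 control clone, so a change caused by GLO1 loss and a difference between clones cannot be told apart within either comparison with shNT. The p-values therefore reflect how far libraries from 1 line scatter, and not how far lines scatter.

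NRF2, encoded by NFE2L2, is a transcription factor that KEAP1 holds in the cytoplasm and sends to degradation. Electrophiles, MG among them, and oxidants modify cysteines of KEAP1, and NRF2 then accumulates and binds antioxidant response elements near its target genes. Its targets build and reduce glutathione and thioredoxin, supply NADPH, store iron and conjugate or reduce toxic carbonyls and quinones. Much of this control acts on NRF2 protein, which RNA libraries do not measure. The question was whether the carbonyl stress of GLO1-silenced cells came with higher mRNA of these genes.

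The core of the antioxidant response element is commonly written TGACNNNGC. It was searched on both strands of RefSeq promoter windows (GRCh38.p14, 250 bases before to 50 after each start), and 28 of the 38 genes had at least 1 window. Of these, 8 genes held the core (28.6%), against 16.1% of all 27305 genes with a window. These are matches of letters and not measured binding. A gene without a match can still hold the core outside its window, where no search was made. Windows of 5 genes are shown, from NADPH supply (PGD and ME1), glutathione synthesis (GCLM), conjugation (GSTP1) and the thioredoxin system (TXNRD1). By the calls given below, PGD, ME1 and TXNRD1 were lower in shGLO1#1 only. GCLM was higher in shGLO1#1 only, and GSTP1 was lower in shGLO1#1 and higher in shGLO1#2. ME1 and TXNRD1 held further matches that are not shown. Each is written on the strand of its gene, and capitals mark the core.
PGD, chr1:10398847-10398887, plus strand, 201 bases before the start: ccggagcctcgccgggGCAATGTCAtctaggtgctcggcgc
GCLM, chr1:93909440-93909480, minus strand, 34 bases before the start: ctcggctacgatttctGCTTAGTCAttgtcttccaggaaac
ME1, chr6:83431164-83431204, minus strand, 137 bases before the start: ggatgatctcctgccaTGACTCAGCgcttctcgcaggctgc
GSTP1, chr11:67583730-67583770, plus strand, 66 bases before the start: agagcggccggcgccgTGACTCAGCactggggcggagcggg
TXNRD1, chr12:104215664-104215704, plus strand, 99 bases before the start: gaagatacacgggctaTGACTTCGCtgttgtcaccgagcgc
In PGD and GCLM the core lies on the opposite strand. ME1 and GSTP1 hold the same 9 letters, which also contain the known AP-1 site TGACTCA. The other genes with a match were KEAP1, MGST1 and GPX2.

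GLO1 mRNA followed the labels in all 9 libraries, at 312 to 323 CPM in shNT, 64.2 to 65.9 in shGLO1#1 and 14.0 to 15.5 in shGLO1#2. CPM are gene counts scaled to the library's TMM-adjusted total, and the libraries held 15314238 to 18495576 gene counts each. The line's mesenchymal markers VIM, CD44, MSN and CAV1 summed to 5477 to 6203 CPM, and mean ESR1 and PGR levels reached at most 0.255 CPM. ERBB2 and EPCAM, the other markers set as low or absent in this line, had means of 67.9 to 79.8 and 10.7 to 14.6 CPM. The 7 luminal markers, ESR1 and PGR among them, summed to 1834 to 2624 CPM, mostly from KRT8, KRT18 and KRT19 (means of 413 to 1073 CPM). The mesenchymal markers did not move together. VIM rose in shGLO1#2 (log2 fold change 0.32) while CD44 and MSN fell (-0.26 and -0.46), and MSN rose in shGLO1#1 (0.28). The shGLO1#1 libraries stood apart in 2 signs of library composition, with 14.5 to 15.2% of alignments on no feature against 12.8 to 13.3% in the other 6 libraries, and TMM factors of 1.02 to 1.04 against 0.972 to 0.997. The summed level of 5 leukocyte markers was 7.69 to 10.9 CPM in shNT, 2.53 to 3.88 in shGLO1#1 and 3.35 to 5.03 in shGLO1#2. Mean PTPRC was 8.37, 1.21 and 2.57 CPM in the 3 groups, and CD3E did not exceed a mean of 0.0217 CPM. LYZ, CD14 and CD79A did not fall, so the lower sums came from PTPRC. In the same order LYZ was 0.916, 1.22 and 1.20 CPM, CD14 0.239, 0.346 and 0.525, and CD79A 0.103, 0.248 and 0.117. The part of these markers and of library composition in the results was not tested. In bulk libraries a change in every cell and a change in the share of cells that express a gene cannot be told apart.

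In shGLO1#1 cells most of the called genes were lower than in shNT, and in shGLO1#2 cells most were higher. In shGLO1#1 cells 6 of the 37 genes rose and 18 fell relative to shNT at an adjusted p under 0.05 (edgeR's quasi-likelihood test, Benjamini-Hochberg over all genes tested). Of all genes tested, 22.6% were higher and 23.1% lower in that comparison, against 16.2% and 48.6% of these genes. In shGLO1#2 cells 15 rose and 5 fell, which is 40.5% and 13.5%, against 18.3% and 19.8% of all genes tested. The median log2 fold change of the 37 genes was -0.17 in shGLO1#1 and 0.13 in shGLO1#2, with 0.00 over all genes in both comparisons. It moved to -0.0815 in shGLO1#1 without shGLO1#1 replicate 1, and in shGLO1#2 to 0.0725 without shNT replicate 3 and 0.0868 without shGLO1#2 replicate 3. Both comparisons share the shNT libraries. The replicate numbers paired the shGLO1#2 and shNT libraries in the data, and with the replicate block 16 genes rose and 9 fell in shGLO1#2. That block covered all 9 libraries, also those of shGLO1#1, whose numbers did not all pair with shNT. The block added TXNRD1, SRXN1, FTH1 and GPX4 to the lower genes and GPX1 to the higher ones.

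The direct comparison of the clones uses no shNT library for its difference. Here 18 genes were higher and 3 lower in shGLO1#2 than in shGLO1#1, or 48.6% and 8.11%, against 22.8% and 23.7% of all genes tested. The median was 0.17, against -0.01 over all genes, and it was 0.0968 without shGLO1#2 replicate 1. The 38 genes together took 0.674 to 0.684% of gene counts in shGLO1#1 libraries, 0.753 to 0.781% in shNT and 0.786 to 0.838% in shGLO1#2. These 3 ranges do not overlap. The share uses gene counts without TMM scaling and is weighted toward the most abundant genes. FTL, FTH1 and TXNRD1 had the most counts, at 224612, 170589 and 102590 over all libraries. FTL alone had 69259 counts in shNT, 63335 in shGLO1#1 and 92018 in shGLO1#2.

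**Figure D1:**
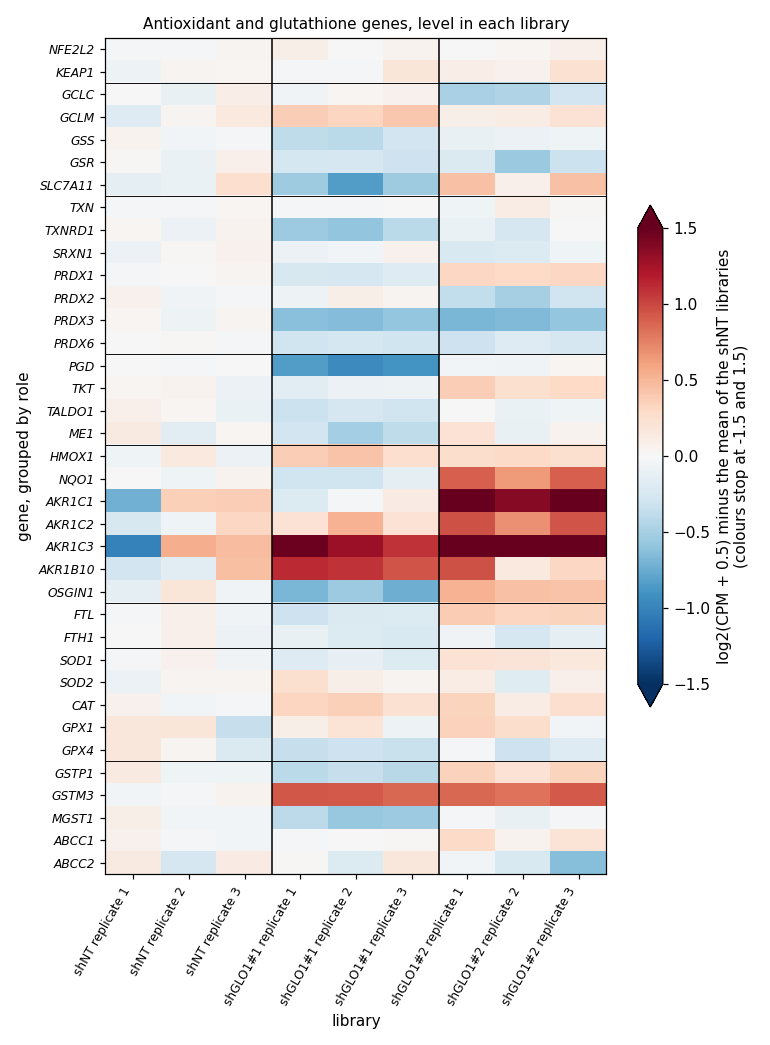
Level of each of the 37 tested genes (rows, grouped by role) in each of the 9 libraries (columns), as log2(CPM + 0.5) minus the mean of the 3 shNT libraries; red is higher and blue lower. NQO1 and the AKR1C genes are red in the 3 shGLO1#2 libraries, PGD is blue in the 3 shGLO1#1 libraries, and PRDX3 is blue in all 6 libraries of both clones.

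Most changes were small. With an absolute log2 fold change over 1 as a further condition, 2 genes rose and 0 fell in shGLO1#1 (5.98% and 2.75% of all genes tested). For shGLO1#2 these were 3 and 0 (5.09% and 2.59%). Between the clones 4 genes passed as higher in shGLO1#2 and 0 as lower (3.33% and 3.75%). All genes that passed this limit in any comparison belong to the group that handles quinones, carbonyls and heme. Leaving out shGLO1#2 replicate 1 added AKR1B10 to the lower genes between the clones.

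The regulators themselves did not pass the test in any comparison. NFE2L2 mRNA was 98.4, 99.4 and 103 CPM in shNT, 107, 101 and 104 in shGLO1#1 and 100, 102 and 106 in shGLO1#2. The 3 groups overlap. On the log2 scale shGLO1#1 lay 0.05 above shNT (SE 0.05, adjusted p = 0.431, edgeR) and shGLO1#2 0.03 above it (SE 0.05, adjusted p = 0.660, edgeR). KEAP1, the adaptor that targets NRF2 for degradation, was 66.6, 72.4 and 71.5 CPM in shNT, 69.0, 69.4 and 79.6 in shGLO1#1 and 75.2, 73.1 and 82.2 in shGLO1#2. All shGLO1#2 libraries lay above the shNT libraries for KEAP1, by 0.13 on the log2 scale (SE 0.07, adjusted p = 0.170, edgeR). In shGLO1#1 it was 0.05 (SE 0.07, adjusted p = 0.592, edgeR).

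The quinone, carbonyl and heme group held the largest changes. In shGLO1#2 cells 6 of its 7 genes rose and 0 fell, with a median log2 fold change of 0.86. That median is the value of AKR1B10, the 1 gene of the group that was not called (adjusted p = 0.184, edgeR). Of the 6 that rose, 3 are AKR1C near copies that can share reads, and the HMOX1 call ended in 11 alternatives. In shGLO1#1 cells 3 rose and 2 fell, with a median of 0.36. Between the clones 5 were higher in shGLO1#2 and 0 lower. For all genes tested the shares higher and lower were 18.3% and 19.8% in shGLO1#2, 22.6% and 23.1% in shGLO1#1 and 22.8% and 23.7% between the clones, and these hold for each group of genes that follows.

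NQO1, a quinone reductase and a standard readout of NRF2 activity, was 134, 128 and 139 CPM in shNT. It was 108, 109 and 121 CPM in shGLO1#1 and 249, 208 and 249 in shGLO1#2. None of the 3 groups overlap, with shGLO1#1 lowest and shGLO1#2 highest. NQO1 rose 1.76-fold in shGLO1#2 (log2 fold change 0.82, SE 0.07, adjusted p = 1.76e-06, edgeR). In shGLO1#1 it fell by 0.25 on the log2 scale (SE 0.07, adjusted p = 0.0141, edgeR), a call that ended with library totals in place of TMM (adjusted p = 0.0555) and without shNT replicate 3, shGLO1#1 replicate 1 or shGLO1#1 replicate 2 (adjusted p = 0.0574 to 0.0594). NQO1 differed between the clones by 1.06 on the log2 scale (SE 0.07, adjusted p = 1.49e-07, edgeR).

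OSGIN1, an oxidative stress-induced growth inhibitor, had the same order of groups. Its level was 9.14, 11.5 and 9.74 CPM in shNT, 6.11, 6.75 and 5.87 in shGLO1#1 and 14.7, 13.8 and 13.7 in shGLO1#2. No groups overlap. OSGIN1 fell 1.62-fold in shGLO1#1 (log2 fold change -0.70, SE 0.12, adjusted p = 0.000451, edgeR) and rose 1.39-fold in shGLO1#2 (0.48, SE 0.12, adjusted p = 0.00488, edgeR). The difference between the clones was 1.17 (SE 0.12, adjusted p = 4.10e-06, edgeR).

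The AKR1C genes encode aldo-keto reductases that reduce steroids and reactive carbonyls. They were among the lowest of the 38 genes in shNT, at 0.136 to 1.84 CPM per kb of exon against 1637 for FTL. They are shown as sequence because they are near copies, so that short reads of one can fall on another. The first 90 coding bases from GENCODE v29 transcripts are given below, with capitals at the 8 positions where the 3 genes are not all alike.
AKR1C1: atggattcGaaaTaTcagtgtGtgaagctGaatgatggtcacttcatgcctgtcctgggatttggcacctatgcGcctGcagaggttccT
AKR1C2: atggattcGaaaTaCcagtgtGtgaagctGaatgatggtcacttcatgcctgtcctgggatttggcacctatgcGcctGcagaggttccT
AKR1C3: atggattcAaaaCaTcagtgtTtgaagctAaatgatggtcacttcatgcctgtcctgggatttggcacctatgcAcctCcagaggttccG
Over 969 coding bases AKR1C1 and AKR1C2 were 98.0% identical, with an identical run of up to 186 bases. AKR1C3 was 91.8% identical to AKR1C1 and 91.2% to AKR1C2. The authors' counts left out reads that mapped to more than 1 place, so the split between AKR1C1 and AKR1C2 is uncertain.

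AKR1C3 was 1.55, 5.54 and 5.20 CPM in shNT, 10.9, 9.52 and 8.27 in shGLO1#1 and 24.4, 19.99 and 19.4 in shGLO1#2. The groups do not overlap, and shNT replicate 1 lay well below the other 2 control libraries. AKR1C3 rose 2.30-fold in shGLO1#1 (log2 fold change 1.20, SE 0.28, adjusted p = 0.00324, edgeR). Without shNT replicate 1 this was 0.83 (adjusted p = 0.00157), below the fold limit. In shGLO1#2 it rose 5.11-fold (2.35, SE 0.27, adjusted p = 1.23e-05, edgeR), and shGLO1#2 lay above shGLO1#1 by 1.15 on the log2 scale (SE 0.24, adjusted p = 0.00130, edgeR).

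AKR1C1 was 0.538, 1.70 and 1.72 CPM in shNT, 0.987, 1.20 and 1.37 in shGLO1#1 and 5.36, 3.91 and 6.64 in shGLO1#2. The shNT and shGLO1#1 libraries overlap, and shGLO1#2 lies above both. AKR1C1 rose 3.93-fold in shGLO1#2 (log2 fold change 1.98, SE 0.31, adjusted p = 0.000190, edgeR), from 265 counts against 65 in shNT. For shGLO1#1 the log2 value was -0.17 (SE 0.38, adjusted p = 0.741, edgeR). Between the clones AKR1C1 differed by 2.15 (SE 0.31, adjusted p = 8.21e-05, edgeR).

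AKR1C2 had the fewest reads of the 3, with 29, 44 and 73 counts in shNT, shGLO1#1 and shGLO1#2. Per library it was 0.403, 0.522 and 0.830 CPM in shNT, 0.741, 1.03 and 0.741 in shGLO1#1 and 1.58, 1.23 and 1.55 in shGLO1#2. Again only shGLO1#2 lies clear of shNT. It rose in shGLO1#2 (log2 fold change 1.27, SE 0.31, adjusted p = 0.00512, edgeR), and in shGLO1#1 the value was 0.49 (SE 0.34, adjusted p = 0.256, edgeR). The difference between the clones, 0.78 (SE 0.28, adjusted p = 0.0381, edgeR), did not pass with DESeq2 (adjusted p = 0.129), with library totals, with no count filter, or without replicates 1 or 3 of either clone.

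With the reads of AKR1C1 to AKR1C4 added together the family rose in both clones. The rise in log2 was 0.94 for shGLO1#1 (SE 0.26, adjusted p = 0.00977, edgeR) and 2.21 for shGLO1#2 (SE 0.25, adjusted p = 1.19e-05, edgeR). Between the clones the sum differed by 1.27 (adjusted p = 0.000451, edgeR). AKR1C3 carried most of these reads.

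AKR1B10, another aldo-keto reductase that acts on retinal and lipid aldehydes, was the gene with the largest change in shGLO1#1. It was 0.202, 0.261 and 0.664 CPM in shNT, 1.36, 1.31 and 1.14 in shGLO1#1 and 1.16, 0.447 and 0.558 in shGLO1#2. These levels rest on 19, 66 and 36 counts per group. Its near copy AKR1B15 had a count of 0 in every library. AKR1B10 rose in shGLO1#1 (log2 fold change 1.68, SE 0.43, adjusted p = 0.00609, edgeR), with no overlap with shNT. The shGLO1#2 value was 0.86 (SE 0.48, adjusted p = 0.184, edgeR) and overlapped shNT, and it ranged from 0.35 without shGLO1#2 replicate 1 (adjusted p = 0.631) to 1.60 without shNT replicate 3, where it passed (adjusted p = 0.0431). The gap between the clones was -0.82 (SE 0.38, adjusted p = 0.0935, edgeR), and without shGLO1#2 replicate 1 by -1.33 (adjusted p = 0.0161).

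HMOX1, the heme oxygenase that breaks heme down to biliverdin, was 12.01 to 14.3 CPM in shNT, 15.3 to 17.5 in shGLO1#1 and 15.2 to 15.7 in shGLO1#2. Both clones lie above shNT. HMOX1 rose in shGLO1#1 (log2 fold change 0.36, SE 0.10, adjusted p = 0.00923, edgeR). In shGLO1#2 it was 0.27 at the edge of the threshold (SE 0.10, adjusted p = 0.0496, edgeR), and the call ended in 11 alternatives, DESeq2 among them (adjusted p = 0.0680).

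**Figure D2:**
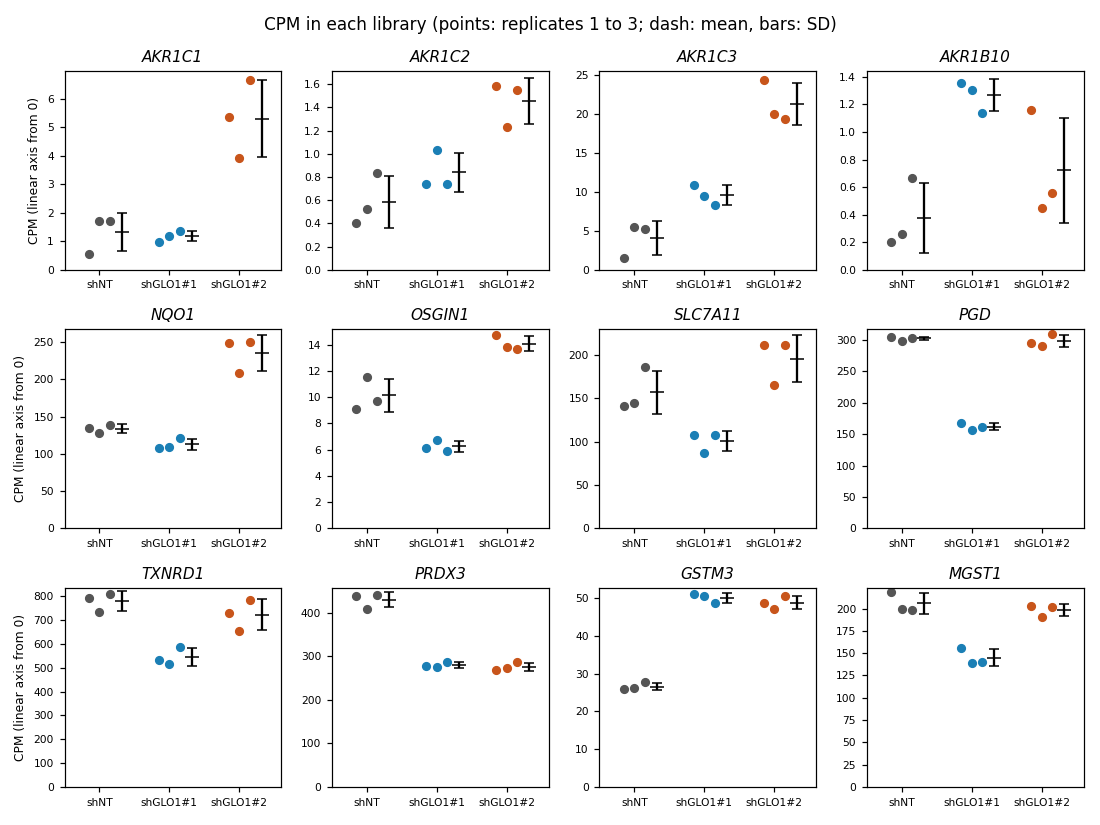
CPM (linear axis from 0) of the 12 genes described in full, in the 3 libraries of each group, with the mean and SD beside the points. NQO1, OSGIN1 and SLC7A11 are lowest in shGLO1#1 and highest in shGLO1#2 by mean, PGD, TXNRD1 and MGST1 are low in shGLO1#1, PRDX3 is low and GSTM3 high in both clones.

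Genes of glutathione synthesis and reduction did not move together. Of 5, 1 rose and 3 fell in shGLO1#1 (20% and 60%, against 22.6% and 23.1% of all genes). In shGLO1#2 1 rose and 2 fell (20% and 40%, against 18.3% and 19.8%). SLC7A11 is the cystine transporter subunit that brings in the limiting amino acid of glutathione. It was 141, 145 and 186 CPM in shNT, 108, 87.0 and 108 in shGLO1#1 and 212, 165 and 211 in shGLO1#2. The shGLO1#1 libraries lie below all others, and shGLO1#2 overlaps shNT. SLC7A11 fell 1.56-fold in shGLO1#1 (log2 fold change -0.64, SE 0.12, adjusted p = 0.000646, edgeR). The shGLO1#2 value was 0.32 (SE 0.12, adjusted p = 0.0485, edgeR), a call that ended without shNT replicate 1 (adjusted p = 0.173) and in 6 other alternatives. The clones differed by 0.96 (SE 0.12, adjusted p = 2.40e-05, edgeR). An antisense gene, SLC7A11-AS1, overlaps 2.86% of its exonic bases, and the kit did not mark strand.

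Glutamate-cysteine ligase, the rate-limiting enzyme of glutathione synthesis, has a catalytic subunit (GCLC) and a modifier subunit (GCLM), which moved in different clones. GCLM was 75.5 ± 2.20 CPM in shGLO1#1 against 58.7 ± 7.09 in shNT (SD, n = 3) and rose by 0.36 on the log2 scale (adjusted p = 0.00209, edgeR). GCLC was 29.5 ± 2.28 CPM in shGLO1#2 against 39.2 ± 2.83 in shNT and fell by 0.41 on the log2 scale (adjusted p = 0.00115, edgeR). In the other clone GCLC was 0.01 and GCLM 0.13 on this scale, and neither passed. Without shNT replicate 3 GCLM was 0.22 in shGLO1#2 and passed (adjusted p = 0.0480). Both subunits were lower in shGLO1#2 than in shGLO1#1 (log2 fold changes -0.42 and -0.23). The GCLM difference, with an adjusted p of 0.0279 (edgeR), ended without either of 2 libraries of each clone.

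GSS, which adds glycine in the last step of the synthesis, fell in shGLO1#1 (log2 fold change -0.36, adjusted p = 0.000101, edgeR) and was -0.09 in shGLO1#2 (adjusted p = 0.193, edgeR). GSR, which reduces oxidised glutathione with NADPH, fell in both clones. The shNT libraries held 67.8 ± 4.23 CPM, against 55.9 ± 1.08 for shGLO1#1 and 52.8 ± 6.29 for shGLO1#2 (SD, n = 3). Its log2 fold changes were -0.28 and -0.36 (adjusted p = 0.0122 and 0.00296, edgeR). The first of these ended without shNT replicate 3 (adjusted p = 0.0552).

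In the thioredoxin system 0 of 7 genes rose and 4 fell in shGLO1#1 (0% and 57.1%, against 22.6% and 23.1% of all genes). For shGLO1#2 the counts were 1 and 3 (14.3% and 42.9%, against 18.3% and 19.8%). TXN, thioredoxin itself, was 289 to 326 CPM over all 9 libraries and did not pass in any comparison. PRDX3, the mitochondrial peroxiredoxin, was 439, 409 and 441 CPM in shNT, 278, 274 and 286 in shGLO1#1 and 268, 272 and 287 in shGLO1#2. All 6 libraries of the clones lie below the shNT libraries. It fell 1.54-fold in shGLO1#1 (log2 fold change -0.62, SE 0.05, adjusted p = 5.72e-07, edgeR) and 1.56-fold in shGLO1#2 (-0.64, SE 0.05, adjusted p = 6.20e-07, edgeR). The difference between the clones was -0.02 (SE 0.05, adjusted p = 0.763, edgeR).

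TXNRD1, the NADPH-dependent reductase of thioredoxin, was 795, 735 and 812 CPM in shNT, 532, 518 and 589 in shGLO1#1 and 729, 654 and 786 in shGLO1#2. Only shGLO1#1 lies apart. It fell 1.43-fold in shGLO1#1 (log2 fold change -0.51, SE 0.07, adjusted p = 5.58e-05, edgeR). In shGLO1#2 it was -0.11 (SE 0.07, adjusted p = 0.242, edgeR) and passed only with the replicate block (adjusted p = 0.0434). The clones differed by 0.40 (SE 0.07, adjusted p = 0.000394, edgeR).

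The other peroxiredoxins, which reduce peroxides with electrons from thioredoxin or glutathione, each had their own pattern. PRDX6 fell in both clones (log2 fold changes -0.29 and -0.25, adjusted p = 0.000226 and 0.000773, edgeR). PRDX2 fell in shGLO1#2 by 0.39 on the log2 scale (adjusted p = 0.000274, edgeR) and was 0.02 in shGLO1#1. PRDX1 was 338 to 352 CPM in shGLO1#1, 392 to 413 in shNT and 495 to 498 in shGLO1#2, so that no groups overlap. Its log2 fold changes were -0.23 and 0.30 (adjusted p = 0.00103 and 0.000122, edgeR). MMACHC, on the opposite strand, overlaps 30.3% of PRDX1's exonic bases. SRXN1, which repairs over-oxidised peroxiredoxins, was -0.02 in shGLO1#1 and -0.16 in shGLO1#2. The second passed with the replicate block (adjusted p = 0.0115) and without shNT replicate 1 or shGLO1#2 replicate 3.

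All 4 genes of NADPH supply were higher in shGLO1#2 than in shGLO1#1. Against shNT 3 fell in shGLO1#1, and 1 rose in shGLO1#2. PGD is the dehydrogenase of the oxidative pentose phosphate pathway that makes NADPH from 6-phosphogluconate. It was 305, 299 and 303 CPM in shNT, 168, 156 and 162 in shGLO1#1 and 295, 291 and 309 in shGLO1#2. The shGLO1#1 libraries lie far below all others. PGD fell 1.87-fold in shGLO1#1 (log2 fold change -0.90, SE 0.05, adjusted p = 3.12e-08, edgeR) and was -0.02 in shGLO1#2 (SE 0.05, adjusted p = 0.780, edgeR). The clones differed by 0.88 (SE 0.05, adjusted p = 3.22e-08, edgeR).

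ME1, the cytosolic malic enzyme, was 25.2 to 29.6 CPM in shGLO1#1 against 32.5 to 39.8 in shNT and fell by 0.41 on the log2 scale (adjusted p = 0.00530, edgeR). TALDO1 (transaldolase) fell in shGLO1#1 by 0.29 (adjusted p = 0.000758, edgeR). Neither passed in shGLO1#2 (0.06 and -0.06). TKT (transketolase) was 459 to 499 CPM in shGLO1#2 against 365 to 400 in shNT and rose by 0.30 (adjusted p = 0.000554, edgeR), with -0.11 in shGLO1#1.

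The ferritins store iron and were the most abundant of the 38 genes per kb of exon. FTL, the light chain, was 1162 to 1243 CPM in shGLO1#1, 1386 to 1513 in shNT and 1795 to 1863 in shGLO1#2. The 3 groups do not overlap. FTL fell in shGLO1#1 (log2 fold change -0.24, SE 0.05, adjusted p = 0.00138, edgeR), rose in shGLO1#2 (0.34, SE 0.05, adjusted p = 0.000111, edgeR) and differed by 0.59 between the clones (adjusted p = 8.20e-07, edgeR). The heavy chain FTH1 was -0.18 in shGLO1#1 (adjusted p = 0.0277, edgeR), a call that ended in 6 alternatives, and -0.15 in shGLO1#2 (adjusted p = 0.0735, edgeR). The second passed with the replicate block (adjusted p = 0.0249) and without shNT replicate 3 or shGLO1#2 replicate 1. Both have processed pseudogenes, whose shared reads are left out of the counts, and BEST1 on the opposite strand overlaps 56.6% of FTH1's exonic bases.

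Among enzymes that remove superoxide and peroxides, 1 of 5 tested rose and 2 fell in shGLO1#1. In shGLO1#2 2 rose and 0 fell. CAT (catalase) was 63.3 to 68.2 CPM in shNT and rose in both clones, to 76.8 to 83.7 in shGLO1#1 and 70.7 to 82.6 in shGLO1#2. Its log2 fold changes were 0.31 and 0.24 (adjusted p = 0.00203 and 0.0127, edgeR), and the second ended without shNT replicate 2 (adjusted p = 0.0505). SOD1, the cytosolic superoxide dismutase, was -0.17 in shGLO1#1 (adjusted p = 0.0150, edgeR, lost in 4 alternatives) and 0.19 in shGLO1#2 (adjusted p = 0.0108, edgeR). GPX4, which reduces lipid hydroperoxides in membranes, fell in shGLO1#1 by 0.34 on the log2 scale (adjusted p = 0.00704, edgeR) and was -0.17 in shGLO1#2. That second value passed with the replicate block (adjusted p = 0.0422), without shNT replicate 3 (-0.27) and without shGLO1#2 replicate 1 (-0.25). SOD2 and GPX1 did not pass in either clone, apart from GPX1 in shGLO1#2 with the block (0.19, adjusted p = 0.0116).

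GSTM3, a mu-class glutathione transferase, rose in both clones. It was 25.8, 26.1 and 27.6 CPM in shNT, 51.2, 50.5 and 48.6 in shGLO1#1 and 48.7, 47.0 and 50.6 in shGLO1#2. Every library of the clones lies above every shNT library. Reads that GSTM3 shares with similar GSTM genes are not in these counts. GSTM3 rose 1.89-fold in shGLO1#1 (log2 fold change 0.92, SE 0.07, adjusted p = 1.94e-07, edgeR) and 1.84-fold in shGLO1#2 (0.88, SE 0.07, adjusted p = 4.27e-07, edgeR). The gap between the clones was -0.04 (SE 0.06, adjusted p = 0.653, edgeR).

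MGST1, a membrane-bound glutathione transferase, was 219, 199 and 199 CPM in shNT, 156, 138 and 140 in shGLO1#1 and 203, 190 and 202 in shGLO1#2. Only shGLO1#1 lies apart. It fell 1.42-fold there (log2 fold change -0.50, SE 0.06, adjusted p = 1.91e-05, edgeR) and was -0.05 in shGLO1#2 (SE 0.06, adjusted p = 0.539, edgeR). The clones differed by 0.45 (SE 0.06, adjusted p = 4.90e-05, edgeR).

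GSTP1, the pi-class transferase, was 36.6 to 38.3 CPM in shGLO1#1, 46.6 to 53.8 in shNT and 57.1 to 62.5 in shGLO1#2, with no overlap. Its log2 fold changes were -0.39 and 0.30 (adjusted p = 0.000573 and 0.00382, edgeR), and the clones differed by 0.70 (adjusted p = 4.13e-06, edgeR). The exporter of glutathione conjugates ABCC1 was 0.19 in shGLO1#2 (adjusted p = 0.0298, edgeR), a call that ended in 5 alternatives. ABCC2, a second such exporter at 2.23 to 4.28 CPM, did not pass in any comparison.

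**Figure D3:**
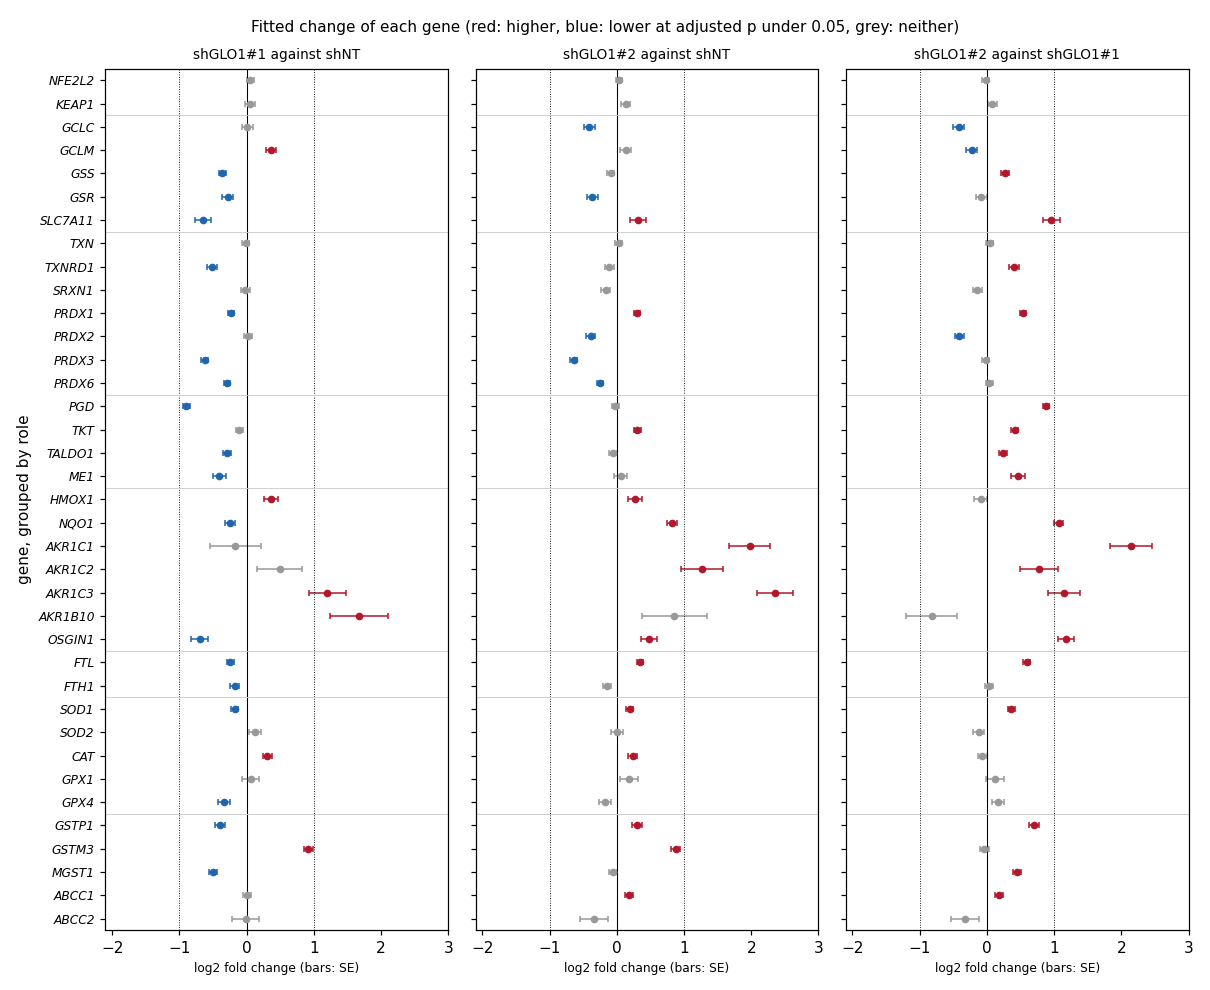
Log2 fold change with SE (bars) of the 37 tested genes in the 3 comparisons, grouped by role; red and blue mark genes higher and lower at an adjusted p under 0.05, grey neither, and dotted lines mark -1 and 1. Blue prevails in shGLO1#1 against shNT (18 lower, 6 higher), red in shGLO1#2 against shNT (15 higher, 5 lower) and in shGLO1#2 against shGLO1#1 (18 higher, 3 lower).

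By libraries that do not overlap the counts were similar. In shGLO1#1 7 of the 37 genes lay above and 18 below all shNT libraries, against 28% of all genes tested in each direction. In shGLO1#2 14 lay above and 6 below, against 23% and 24.3%. Between the clones 19 lay above in shGLO1#2 and 3 below, against 26.9% and 28.5%.

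The libraries also hold further genes of the same pathways, taken as lists. Of 15 other regulators, 2 rose and 6 fell in shGLO1#1 (13.3% and 40%, against 22.6% and 23.1% of all genes). In shGLO1#2 2 rose and 3 fell (13.3% and 20%, near or below the 18.3% and 19.8% of all genes). MAFF and MAFK, small MAF proteins that pair with NRF2 on DNA, were -0.62 and -0.50 in shGLO1#1 (adjusted p = 7.75e-06 and 0.000178, edgeR). MAFK was -0.31 in shGLO1#2 (adjusted p = 0.00744, edgeR), whereas MAFF was -0.03 there. MAFG, the third small MAF, did not pass (-0.07 in shGLO1#1 and 0.00 in shGLO1#2, adjusted p = 0.375 and 0.997, edgeR). NFE2L3, a relative of NRF2, rose in both clones (0.60 and 0.42). The other called genes of this list in shGLO1#1 were CUL3, which rose by 0.23, and NFE2L1, BACH1, SQSTM1 and DPP3, which fell (-0.16 to -0.32). BACH2 rose by 0.89 in shGLO1#2, the largest change of this list, and NFE2L1 and DPP3 fell there by 0.31 each.

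Of 23 other tested genes for NADPH, thioredoxin and peroxides, 5 rose and 7 fell in shGLO1#1 (21.7% and 30.4%, against 22.6% and 23.1% of all genes). In shGLO1#2 7 rose and 2 fell (30.4% and 8.70%, against 18.3% and 19.8%). TXNIP, which binds and inhibits thioredoxin, rose in both clones. Its mean was 118, 330 and 188 CPM in shNT, shGLO1#1 and shGLO1#2, with log2 fold changes of 1.48 and 0.67. SESN3, a sestrin, rose by 1.88 and 0.73. SOD3, the secreted superoxide dismutase, rose by 2.02 and 1.90.

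Of 35 other tested genes for glutathione and detoxification, 8 rose and 8 fell in shGLO1#1, 22.9% each way, close to the 22.6% and 23.1% of all genes. In shGLO1#2 10 rose and 12 fell (28.6% and 34.3%, against 18.3% and 19.8%). SLC3A2, the heavy chain that pairs with SLC7A11 in the cystine transporter, fell from 262 to 127 CPM in shGLO1#1 and was 241 in shGLO1#2 (log2 fold changes -1.04 and -0.12). Its difference between the clones was 0.92 (adjusted p = 3.40e-07, edgeR). CHAC1, which degrades glutathione, fell by 1.13 and 0.70 on the log2 scale. GGT7, of the gamma-glutamyltransferase family, rose by 1.09 in shGLO1#2 and was 0.21 in shGLO1#1. ALDH3A1, an aldehyde dehydrogenase, rose from 0.567 CPM to 2.47 and 2.13 (log2 fold changes 2.08 and 1.86, SE 0.38 and 0.39). Its levels rest on 28, 129 and 106 counts in shNT, shGLO1#1 and shGLO1#2.

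SLC7A11 is also a target of ATF4, the transcription factor of the amino acid response. Of 9 tested genes of an ATF4 list (ATF4 and its targets, 2 of them in the lists above), 1 rose and 7 fell in shGLO1#1 (11.1% and 77.8%, against 22.6% and 23.1% of all genes). In shGLO1#2 4 rose and 3 fell (44.4% and 33.3%, against 18.3% and 19.8%). The 3 that fell were DDIT3, SESN2 and CHAC1 (log2 fold changes -0.31, -0.39 and -0.70). Between the clones 6 were higher in shGLO1#2 and 0 lower (66.7% and 0%, against 22.8% and 23.7%). TRIB3 and PSAT1 differed most between the clones, by 1.19 and 1.17 on the log2 scale. The list was chosen because SLC7A11 is an ATF4 target, and a part of ATF4 in the SLC7A11 values was not tested.

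**Figure D4:**
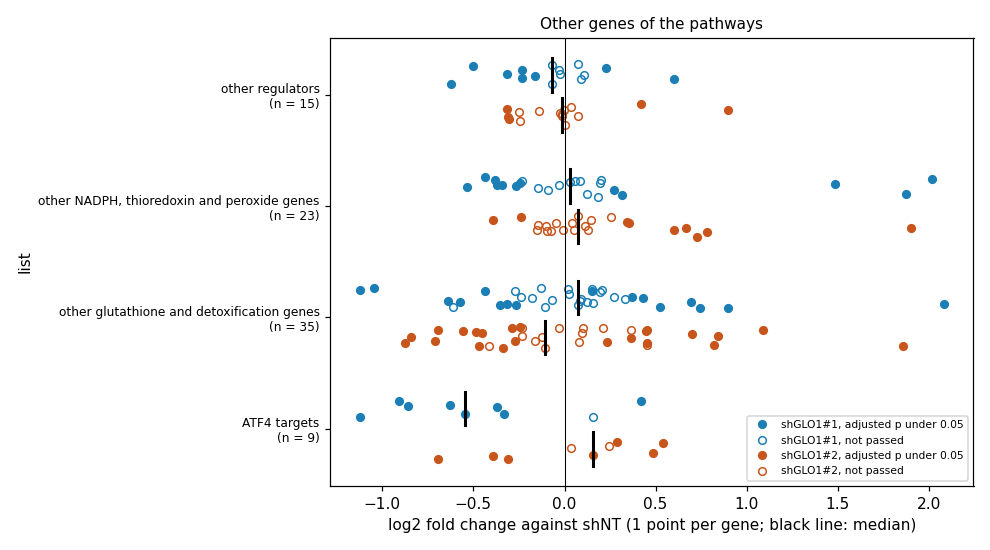
Log2 fold change against shNT of the other pathway genes, with 1 point per gene in shGLO1#1 (blue) and shGLO1#2 (orange), filled where the adjusted p is under 0.05, and the median as a black line. The median of the ATF4 list is -0.55 in shGLO1#1 and 0.15 in shGLO1#2, and medians of the other 3 lists lie between -0.11 and 0.07.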

How the data were processed

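The authors sequenced total RNA of cell pellets after unstranded TruSeq preparation. Their processing notes name bcl2fastq 2.17, TopHat2 2.1.1 with the hg19 genome, and HTSeq. The HTSeq version, the annotation and the strand setting are not given in those notes or in the paper's methods used here. Raw counts per gene symbol were deposited, with no normalization. HTSeq's summary lines were left out: 12.8 to 15.2% of alignments were on no feature, 1.50 to 1.95% ambiguous and 5.76 to 6.15% not unique.

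Differential expression used edgeR 4.0.16 under R 4.3.3, with filterByExpr (minimum count 10, minimum total 15) and TMM scaling (factors 0.972 to 1.04). The fit was 1 quasi-likelihood model of all 9 libraries without a replicate term. It was also run on counts simulated with its own dispersions and no replicate pairing, which checks the code only. Each SE was obtained from the fold change and the F statistic, as |log2 fold change| over the root of F. Two-sided p-values were adjusted by the Benjamini-Hochberg method over 13704 genes. The members and lists were chosen with earlier results of these data known. Genes in full are those past an adjusted p of 0.05 and an absolute log2 fold change of 1 in either clone, the next by size to reach 12, and NFE2L2 and KEAP1. Genes of other lists are named where they passed both limits in either clone. The named genes of the list of other regulators, with TRIB3, PSAT1, DDIT3 and SESN2, fall outside this rule and were named after their values were seen. No list was tested.

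Deviations from group means over 10757 genes correlated between equal replicate numbers of shGLO1#2 and shNT (r = 0.41, 0.28 and 0.54), so these numbers pair, from the data and not from the labels. Those of shGLO1#1 and shNT (-0.02, 0.13 and 0.42) and of the clones (0.28, 0.07 and 0.58) do not all pass 0.1. Alternatives were RLE, upper quartile and no scaling, DESeq2 1.42.0, 2 other filters, only the groups compared, the replicate block, summed AKR1C reads and each library left out. Exon lengths and overlaps (GENCODE v29) and promoters (RefSeq, GRCh38.p14) came from another build than the counts and were joined by symbol.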

Additional observations from a re-analysis of the deposited data

Results flagged for a closer look

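The difference between shGLO1#2 and shGLO1#1 equals that between their log2 fold changes against shNT, in which the shNT level cancels. It passed an adjusted p of 0.05 (edgeR's quasi-likelihood test) for 21 of the 37 genes, 18 of them higher in shGLO1#2. For all genes tested 22.8% were higher and 23.7% lower. In the quinone and carbonyl group the log2 differences were 2.15 for AKR1C1, 1.17 for OSGIN1, 1.15 for AKR1C3, 1.06 for NQO1 and 0.78 for AKR1C2. For NADPH supply they were 0.88 for PGD, 0.46 for ME1, 0.42 for TKT and 0.24 for TALDO1. For glutathione synthesis they were 0.96 for SLC7A11, 0.27 for GSS, -0.23 for GCLM and -0.42 for GCLC. In the thioredoxin system they were 0.53 for PRDX1, 0.40 for TXNRD1 and -0.41 for PRDX2. The remaining differences were 0.59 for FTL, 0.36 for SOD1, 0.70 for GSTP1, 0.45 for MGST1 and 0.18 for ABCC1. The ABCC1 difference ended with library totals and without 4 of the clones' libraries. Why the clones differ was not tested.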

How the results depend on the processing

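No call of a gene reversed its direction in any of the alternatives. The summed AKR1C reads were set against the call of each of AKR1C1, AKR1C2 and AKR1C3. In shGLO1#1 the sum was 0.94 and called, while AKR1C1 (-0.17) and AKR1C2 (0.49) had no call. Those 2 cases are the only gains of shGLO1#1 counted next, and neither gene's own value gained a call. Over all alternatives 15, 24 and 16 gene values lost their call, and 2, 13 and 5 gained one, in shGLO1#1 against shNT, shGLO1#2 against shNT and between the clones. The median of the 37 genes in shGLO1#1 was -0.10 with library totals in place of TMM and -0.178 to -0.0815 with 1 library left out (-0.0815 without shGLO1#1 replicate 1). In shGLO1#2 it was 0.18 with upper quartile scaling, 0.061 with genes of at least 1 CPM, 0.10 with only the 2 groups and 0.0725 to 0.155 with 1 library left out. Between the clones it was 0.12 with library totals and 0.10 to 0.24 with 1 library left out. The spread of this median between replicates was 0.03 (SD, log2). With the replicate block the lower genes in shGLO1#2 became 9, those of shGLO1#1 against shNT stayed at 6 higher and 18 lower, and between the clones they were 19 and 4. Genes higher past the fold limit in shGLO1#1 numbered 1 with genes of at least 1 CPM and 1 to 2 with 1 library left out (1 without shNT replicate 1). Between the clones 0 to 1 were lower past it. Library totals turned the split of all calls in shGLO1#1 from 49.5 to 62.2% higher, and upper quartile scaling that of shGLO1#2 from 48.1 to 58.3%. Between the clones library totals moved it from 49.1 to 40.6%, with 16 of the 37 genes higher and 4 lower. The causes were not tested. Depth limits AKR1C1, AKR1C2 and AKR1B10, which had 19 to 265 counts per group. It also limits ALDH3A1 of the other lists, with 28 to 129.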
